A study of Drosophila melanogaster with 3 samples.

Results

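Small nuclear RNA (snRNA) and small nucleolar RNA (snoRNA) genes were examined for binding of Lola-RI, a transcription factor with a BTB domain and zinc fingers that is 1 of the isoforms of lola. Members were all genes in release 6 (dm6) gene models of Drosophila melanogaster whose symbol starts with snRNA: or snoRNA:, on the 6 main chromosome arms. They numbered 289 of 18164 genes analysed, of which 32 were snRNA genes and 257 snoRNA genes. Of the snoRNA genes, 236 lay wholly inside another gene on the same strand, here called embedded, and these fell in 82 host genes. The other 21 lay outside any gene on their strand and are called independent.

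Binding was measured by chromatin immunoprecipitation and sequencing (ChIP-seq) in 1 group of 3 biological replicates of the strain lola-RI-GFP, a transgenic line that stably expressed Lola-RI with eGFP fused to its C terminus. Chromatin came from entire larvae of the third instar that had begun to wander, males and females together and of unstated age, so a summit can come from any larval tissue. No label names the promoter that drives the transgene. The labels describe an anti-GFP precipitation while their antibody field names lola, and sonicated fragments of 200 to 800 bp. No second condition or genotype was analysed, so no test was possible: counts are set beside the same count over all genes, and spread is that over 3 replicates.

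The authors deposited 30000 peaks for each replicate and for the pooled replicates, and 9202 peaks that passed an irreproducible discovery rate (IDR) filter. The lists hold no read counts, so depth is unknown. A gene was counted as bound when a peak summit lay within 500 bp of its annotated start. Ranks count from 1, the highest of the authors' own scores in a list, and distances are positive downstream along the gene's strand. For the spread, each replicate list was shortened to its 9202 highest-scoring peaks. The start of an embedded snoRNA gene is the end of a processed RNA rather than a place where transcription begins.

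snRNAs are the RNA cores of the spliceosome (U1, U2, U4, U5 and U6, and U11, U12, U4atac and U6atac for the minor class of introns), of histone mRNA 3′ end processing (U7) and of the complex that holds the elongation kinase P-TEFb inactive (7SK). Their genes have short independent promoters around a proximal sequence element, called PSEA in flies, that binds the complex PBP (SNAPc). U6, U6atac and 7SK are made by RNA polymerase III and the others by RNA polymerase II. Most fly snoRNAs are instead cut from introns of host transcripts: box C/D snoRNAs guide 2′-O-methylation and box H/ACA snoRNAs guide pseudouridylation, mostly of ribosomal RNA.

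The 80 bases before the gene start are shown for snRNA genes with an IDR summit (7SKa, LU, U11, U12, U1:95Ca, U6:96Ac) and without one (U2:38ABa, U5:14B, U7, U4atac, 7SKb), to show the promoter element that both kinds hold. They are followed by a U3 gene without an IDR summit and by Psi18S-301, an independent snoRNA gene with one. Sequences are from the RefSeq release 6 assembly and read 5′ to 3′ on the gene's strand, with the match to TTCNCAA, the core of the PSEA, that starts 70 to 50 bp before the gene in capitals.
snRNA:7SKa, chr3R:7474997-7475076, minus strand: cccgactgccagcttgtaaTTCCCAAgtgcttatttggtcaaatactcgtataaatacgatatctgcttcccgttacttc
snRNA:LU, chr2L:3046685-3046764, plus strand: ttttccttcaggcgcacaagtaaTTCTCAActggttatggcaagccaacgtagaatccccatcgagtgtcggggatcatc
snRNA:U11, chr3L:3893331-3893410, minus strand: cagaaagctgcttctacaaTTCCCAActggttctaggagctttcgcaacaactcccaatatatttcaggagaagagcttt
snRNA:U12, chr3L:16653689-16653768, plus strand: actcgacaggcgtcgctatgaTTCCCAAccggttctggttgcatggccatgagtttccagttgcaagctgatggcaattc
snRNA:U1:95Ca, chr3R:23859631-23859710, minus strand: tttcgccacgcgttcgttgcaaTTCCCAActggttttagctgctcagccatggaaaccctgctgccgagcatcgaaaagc
snRNA:U6:96Ac, chr3R:24557135-24557214, plus strand: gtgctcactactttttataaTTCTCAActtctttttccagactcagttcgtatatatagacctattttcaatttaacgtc
snRNA:U2:38ABa, chr2L:19815806-19815885, minus strand: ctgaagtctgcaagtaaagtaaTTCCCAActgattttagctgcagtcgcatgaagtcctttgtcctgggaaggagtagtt
snRNA:U5:14B, chrX:16254118-16254197, minus strand: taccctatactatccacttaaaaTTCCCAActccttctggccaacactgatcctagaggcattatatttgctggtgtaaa
snRNA:U7, chr3L:3593743-3593822, plus strand: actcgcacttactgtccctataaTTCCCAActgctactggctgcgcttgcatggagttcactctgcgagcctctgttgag
snRNA:U4atac, chr3R:5195164-5195243, minus strand: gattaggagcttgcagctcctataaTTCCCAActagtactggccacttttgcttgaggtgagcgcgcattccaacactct
snRNA:7SKb, chr3R:23432789-23432868, plus strand: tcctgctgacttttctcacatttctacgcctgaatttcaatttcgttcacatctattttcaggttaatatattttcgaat
snoRNA:U3:9B, chrX:10348045-10348124, plus strand: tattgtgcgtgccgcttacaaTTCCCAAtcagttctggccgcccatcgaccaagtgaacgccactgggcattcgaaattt
snoRNA:Psi18S-301, chr3R:20574826-20574905, plus strand: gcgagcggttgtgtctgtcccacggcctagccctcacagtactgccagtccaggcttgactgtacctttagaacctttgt

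The core stood between 70 and 50 bp before the start, on the gene's own strand, in 31 of 32 snRNA genes. Its first base lay from −64 to −55 bp, with a median of −58. In 26 genes the fourth base was C and in 5 it was T (LU, U2:38ABb, U4:25F, U6:96Ab and U6:96Ac). It stood there in 0.958% of all genes. Of the snRNA genes with an IDR summit 7 of 7 held it, and of those without one 24 of 25, 7SKb being the exception. Over a 300 bp window, from 250 bp before to 50 bp after the start and on both strands, TTCCCAA was in 81.2% of snRNA genes and in 5.3% of all genes. The looser TTCNCAA, of which it is a case and which was chosen after the promoters were seen, was in 96.9% and 19.4%. The letters TATA stood between 35 and 20 bp before the start, on the gene's strand, in 7 of 32 snRNA genes and in 14% of all genes. The 7 were the polymerase III genes 7SKa, U6atac and the U6 genes, with U11 and U4:39B. TATA was there in 4 of 7 snRNA genes with an IDR summit and in 3 of 25 without one. The 4 were 7SKa, U11, U6:96Ab and U6:96Ac, of which the U6 genes share 1 summit, nearer to U6:96Ac. Over the 300 bp window TTCCCAA was in 4 of 7 snRNA genes with an IDR summit and in 22 of 25 without one. The looser TTCNCAA was thus present whether or not a summit was called, but it was chosen with these promoters in view.

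An IDR summit lay within 500 bp of 7 of 32 snRNA genes (21.9%, Wilson 95% interval 11 to 38.8%, counting error over genes only), beside 27.2% of all genes. The 7 genes shared 6 summits. In the shortened replicate lists the share was 28.1% in replicate 1, 21.9% in replicate 2 and 18.8% in replicate 3 (22.9% ± 4.77, SD, n = 3). The share of all genes in the IDR list, 27.2%, lay within that range. In all 3 shortened lists 6 genes had a summit, or 18.8%, beside 21.3% of all genes. The full pooled list gave 9 of 32, or 28.1%, beside 41.9% of all genes. For 6 of the 7 the gene's own start was the nearest annotated start to the summit.

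**Figure D1:**
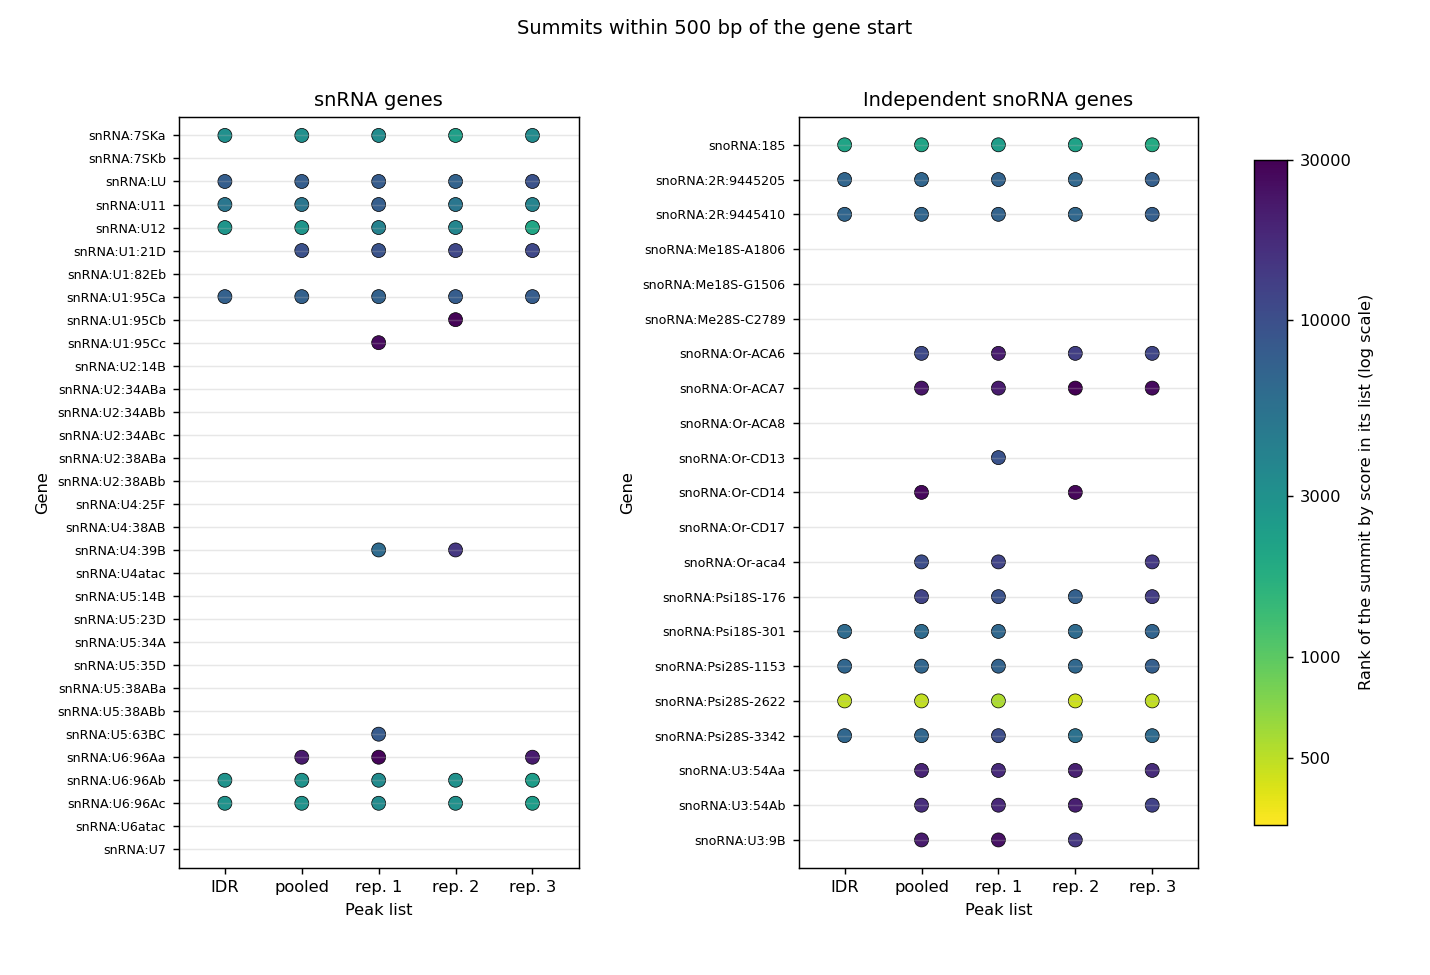
Each row is an snRNA gene (left) or an independent snoRNA gene (right) and each column a peak list, with a point where a summit lay within 500 bp of the gene start and its colour giving the rank on a log scale. The U2 and U5 rows are empty in the IDR and pooled lists. The snRNA genes 7SKa, LU, U11, U12, U1:95Ca, U6:96Ab and U6:96Ac have a point in every list.

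Among the RNAs of the minor spliceosome, U11 and U12 had summits and U4atac and U6atac did not. The U12 gene (chr3L:16653769-16654006, plus strand, antisense within Baldspot) had the best rank of the snRNA genes, 2806 in the IDR list, with its summit at +24 bp. Its ranks were 4031, 3728 and 2030 in replicates 1 to 3, with summits at +17, +33 and +25 bp. U11 (chr3L:3893056-3893330, minus strand, antisense within Fie) ranked 5034 with its summit at +1 bp. In the replicates it ranked 7869, 5001 and 3862, at +19, −28 and +19 bp. Both summits thus stayed within 33 bp of the start in each replicate. The nearest pooled summit was 853 bp from U4atac and 5443 bp from U6atac.

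U1 RNA recognises the 5′ splice site in the major spliceosome, and 1 of its 5 genes had an IDR summit. U1:95Ca (chr3R:23859467-23859630, minus strand) ranked 7399, with the summit at −61 bp, and 7355, 7911 and 8011 in the replicates, at −25, −43 and −62 bp. U1:21D fell just below the IDR list: its pooled summit, 71 bp from the start, ranked 9740, and it ranked 9360, 11361 and 11208 in the replicates. U1:95Cb had a summit in replicate 2 alone (rank 28936), U1:95Cc in replicate 1 alone (rank 26701), and U1:82Eb in no list. Close copies of 1 RNA therefore differed in whether a summit was called.

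The U2, U4 and U5 genes had no IDR summit, with counts of 0 of 6, 0 of 3 and 0 of 7. U2 pairs with the branch point, and U4 and U5 enter the spliceosome with U6. No U2 gene had a summit in any list, the nearest pooled summit being between 1447 and 9429 bp away. For U5 the nearest pooled summit was between 951 and 9465 bp away, and only U5:63BC had one in a replicate list, in replicate 1 (rank 8200). U4:39B ranked 6269 in replicate 1 and 14493 in replicate 2, at +31 and −166 bp, and was without a summit in replicate 3 and in the pooled list. Copies of 1 snRNA gene are alike in sequence, so repeated sequence was counted. Within 500 bp of the start, the share of 36-base words that occur elsewhere in the genome had a median of 7.25% over the 25 snRNA genes without an IDR summit and 0% over the 7 with one. It was 53.8% at U2:38ABa, 51.9% at U2:34ABc, 50.3% at U2:38ABb and 26.4% at U5:34A. It was 14.7% at U1:95Ca, which had a summit, and 0% at 7SKb, U4:25F, U4atac, U6atac and U7, which had none. Neither the read length nor the handling of reads with several matches is given here, so the part of repeated sequence in these counts was not tested.

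The U6 genes, which form the catalytic core with U2, stand in a row at 96A on 3R. A single summit of rank 2899 lay at −114 bp from U6:96Ac (chr3R:24557215-24557321, plus strand) and at +409 bp from U6:96Ab (chr3R:24556692-24556798, plus strand). It ranked 3392, 3074 and 2440 in the replicates, at −85, −88 and −114 bp from U6:96Ac, which is the nearer start in each. U6:96Aa had a pooled summit 13 bp from its start at rank 21721, with rank 28282 in replicate 1, 21309 in replicate 3 and no summit in replicate 2. The group of 3 thus counted as 2 bound genes through 1 summit.

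Of the remaining snRNA genes, 7SKa (chr3R:7474553-7474996, minus strand) ranked 3091, with the summit at +175 bp, inside the transcribed part. It ranked 3359, 2343 and 3401 in the replicates, at +209, +135 and +232 bp. A pooled summit of lower score stood 24 bp from the start. The second 7SK gene, 7SKb, whose upstream region lacked the PSEA core, had no summit in any list. Its nearest pooled summit was 1285 bp away and its nearest IDR summit 39705 bp away. U7 had no summit in any list either, with the nearest pooled summit 18350 bp away. LU (chr2L:3046765-3046880, plus strand, within FASN2) ranked 7800 at −28 bp, and 8101, 7114 and 9605 in the replicates. Replicate 3 put it outside the shortened list. Over all 32 snRNA genes, 19 had no summit in any of the 5 lists.

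**Figure D2:**
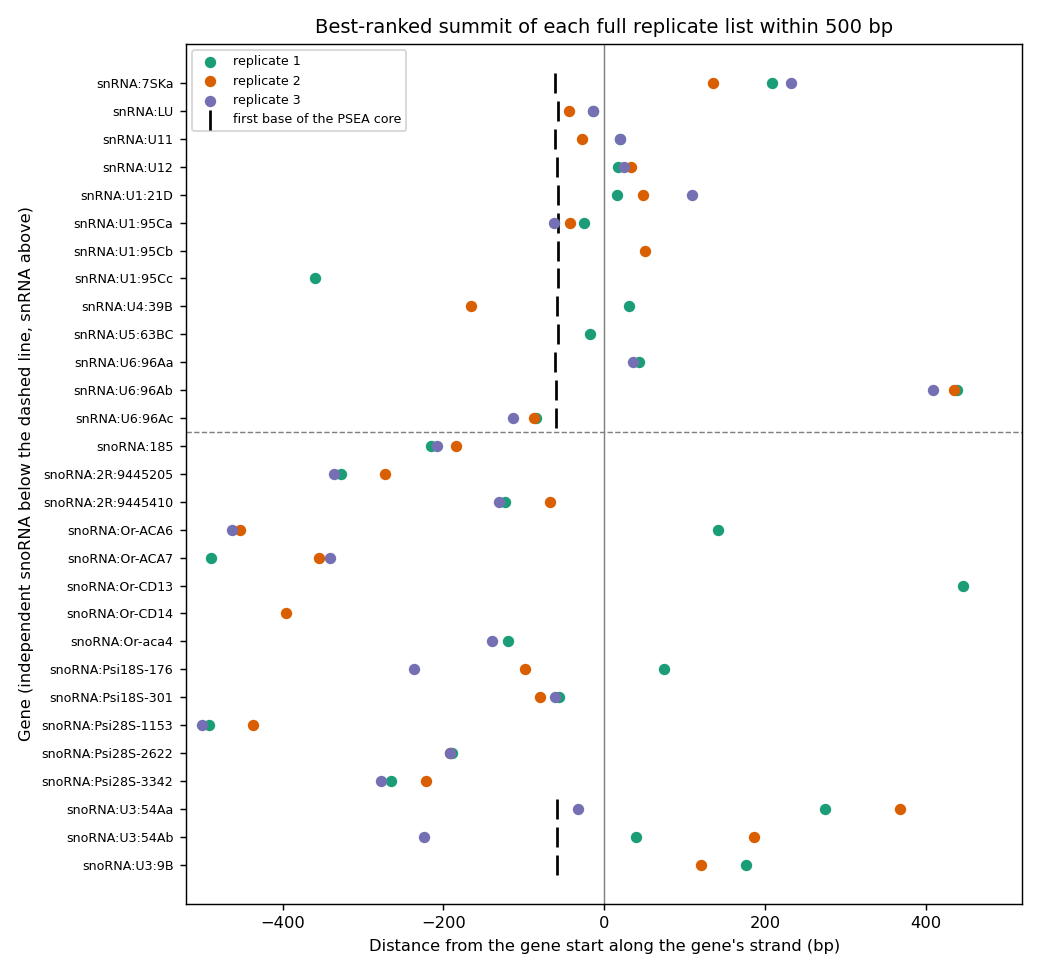
Points give the best-ranked summit of each full replicate list within 500 bp of the start, in bp along the gene's strand, for the snRNA genes (above the dashed line) and independent snoRNA genes (below) with at least 1 such summit. Black ticks mark the first base of the PSEA core. Summits of U12, U11 and LU fall close to the start in all replicates, those of 7SKa downstream of it, and those of U3:54Aa on both sides.

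By place, 6 of 21 snRNA genes outside any gene on their strand had an IDR summit (28.6%, through 5 summits), beside 27.2% of all genes. Inside a gene on their strand it was 1 of 11 (LU, 9.09%), beside 17.0% of other genes so placed. The difference between these small sets was not tested. The 7 distances had a median of +1 bp and 3 of them were upstream.

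Of the independent snoRNA genes, 7 of 21 had an IDR summit (33.3%, Wilson 95% interval 17.2 to 54.6%), through 5 summits. The shortened replicate lists gave 28.6%, 38.1% and 33.3% (33.3% ± 4.76, SD, n = 3) while the share of all genes in the IDR list, 27.2%, lay below each of them and inside the interval. All 7 summits lay upstream, at a median of −192 bp. The median rank was 6703 of 9202. Over the pooled list the count was 15 of 21, or 71.4%, beside 41.9% of all genes. By place, 6 of 11 outside any gene had an IDR summit (54.5%, through 4 summits), beside 27.2% of all genes. Among those that lay antisense within a gene it was 1 of 10. Both sets are small, and the difference between them was not tested.

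The summit of best rank was that of Psi28S-2622 (chr3L:1488906-1489045, plus strand, antisense within stet), a box H/ACA guide by its name. It ranked 481, and 556, 449 and 483 in the replicates, at −192 bp in the IDR list and −189, −192 and −192 bp in the replicates. The nearest annotated start to it belonged to the small noncoding RNA gene sncRNA:CR43701. Psi18S-301 (chr3R:20574906-20575043, plus strand), shown with its upstream bases above, ranked 6250 at −80 bp, and 6505, 6271 and 7053 in the replicates. Psi28S-3342 on X ranked 6703 at −251 bp, and 10303, 5457 and 6247, so that it fell outside the shortened list of replicate 1. Each of the last 2 was itself the nearest start.

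The 101 bases around the summits of Psi28S-2622, Psi18S-301 and Psi28S-3342 are given on the gene's strand, since no PSEA core stood before any independent snoRNA gene with an IDR summit (0 of 7) and these summits lie farther upstream than the core. A match on either strand to the PSEA core, the TATA box or the other motifs spelled out for the hosts, the B box left out, would be in capitals.
snoRNA:Psi28S-2622, chr3L:1488664-1488764, plus strand: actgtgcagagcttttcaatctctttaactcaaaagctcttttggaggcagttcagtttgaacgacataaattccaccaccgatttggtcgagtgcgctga
snoRNA:Psi18S-301, chr3R:20574776-20574876, plus strand: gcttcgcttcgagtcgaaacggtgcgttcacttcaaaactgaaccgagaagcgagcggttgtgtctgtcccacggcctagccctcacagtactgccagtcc
snoRNA:Psi28S-3342, chrX:5524666-5524766, minus strand: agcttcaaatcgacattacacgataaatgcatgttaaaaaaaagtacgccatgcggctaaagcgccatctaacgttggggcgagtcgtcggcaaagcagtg

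None of the 3 stretches held a match. The PSEA core did stand before 4 of the 21 independent snoRNA genes. They were U3:9B, U3:54Aa and U3:54Ab, which encode the U3 RNA of ribosomal RNA precursor cleavage, with the core at −59 bp, and Me18S-A1806, with the core at −66 bp. None of the 4 had an IDR summit. In the pooled list U3:54Aa ranked 19112, U3:54Ab 16626 and U3:9B 21764, and their replicate summits lay from −224 bp to +368 bp, those of U3:9B downstream in replicates 1 and 2 with none in replicate 3. The share of repeated 36-base words was 46.9% at U3:54Aa, 47.2% at U3:54Ab and 6.83% at U3:9B, and its part in these ranks was not tested.

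The other independent genes with an IDR summit were on 2R. The gene snoRNA:185 had a summit at −185 bp of rank 2110, and ranks 2414, 2168 and 1876 in the replicates, and was itself the nearest start. A run of 3 genes on the minus strand, 2 of them named only by a position and the last Psi28S-1153, shared a single summit of rank 6757, at −76, −281 and −445 bp. It ranked 7139, 6557 and 7716 in the replicates. Only the first of them was the nearest start, so the run counts as 3 genes through 1 summit. Below the IDR list, Or-aca4 ranked 10292, Or-ACA6 10800, Psi18S-176 11900, Or-ACA7 23339 and Or-CD14 27174 in the pooled list, and Or-CD13 had a summit in replicate 1 alone (rank 9365). In 5 of the 21 no list held a summit.

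The embedded snoRNA genes had an IDR summit at 24 of 236 starts (10.2%, Wilson 95% interval 6.93 to 14.7%), through 19 summits. Genes of any other kind that lie inside a gene on their strand gave 323 of 1904, or 17.0%. The shortened replicate lists gave 7.2%, 7.2% and 10.2% (8.19% ± 1.71, SD, n = 3), and 10 genes had a summit in all 3. In 186 of the 236 no list held a summit. By distance to the host's start, it was 12 of 35 snoRNA genes within 500 bp of a host start, 3 of 48 above 500 and up to 1000 bp, 2 of 72 above 1000 and up to 2000 bp, and 7 of 81 farther away, 4 of these through 1 summit in kra. It was 23 of 145 where the host had an IDR summit at a start, and 1 of 91 where it had none. Hosts with such a summit are counted at many of the same summits, so these counts are not separate evidence.

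Counting embedded and independent genes together, 10 of 94 genes named as box C/D guides had an IDR summit (10.6%) and 14 of 115 named as box H/ACA guides (12.2%). Over the replicates the shares were 8.87% ± 1.63 and 10.1% ± 1.81 (SD, n = 3), and the replicates of the 2 classes overlapped. The 48 snoRNA genes with other names had 7. Over all genes the share was 27.2%, and over other genes inside a gene on their strand 17.0%. Among independent genes, 0 of 6 box C/D and 4 of 9 box H/ACA genes had one, and the difference between these small sets was not tested.

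**Figure D3:**
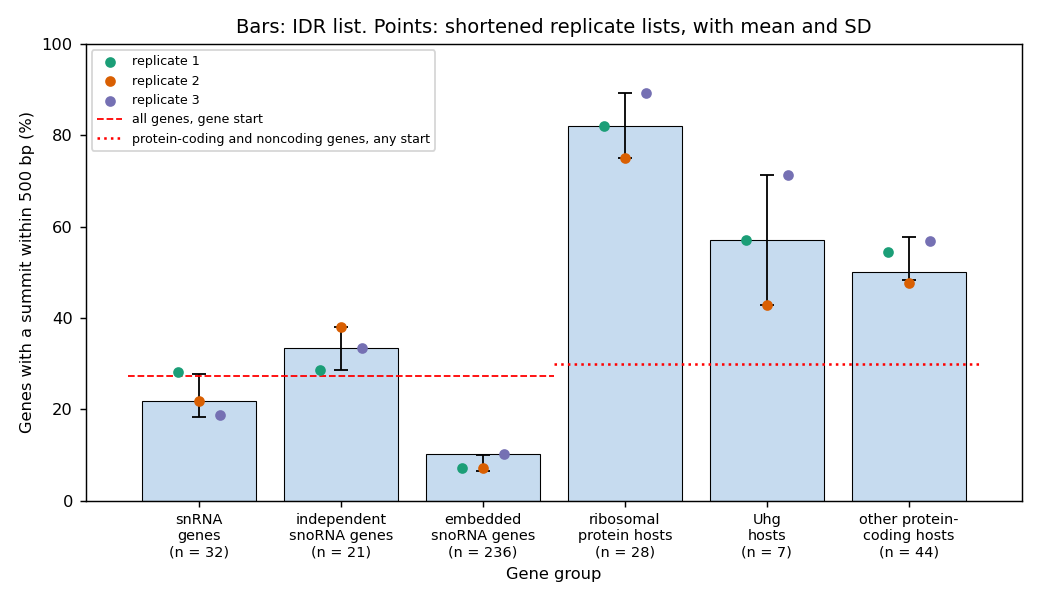
Bars give the percent of genes in each group with an IDR summit within 500 bp of the gene start (3 groups on the left) or of any host start (3 groups on the right). Points give the shortened replicate lists, with their mean and SD (n = 3). The red lines are shares in the IDR list. They give 27.2% of all genes by gene start (left) and 29.9% of protein-coding and noncoding RNA genes by any start (right). Embedded snoRNA genes lie below their line in all 3 replicates and ribosomal protein hosts above theirs.

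Of the 24 embedded genes, 14 had a summit that also lay within 500 bp of a start of their host, through 13 summits at 13 hosts. The host was the nearest start for 10 of the 14, the snoRNA gene itself for 3 (Or-aca2, Me28S-A1322 and gcl-a), and Boot for Psi28S-2949 in Uhg4. In 11 of the 14 the summit was the best-ranked promoter summit of the host. CG43051-a had the best rank: its summit, of rank 348 (455, 411 and 296 in the replicates), lay 250 bp before the start of CG43051 and 419 bp before the snoRNA. Others were Me18S-A1576 in Uhg2 (rank 2810), Psi18S-1275 in RpS29 (rank 3478) and Me18S-C1366 in Uhg5 (rank 4423), each with its host as the nearest start. The remaining 10 took 6 summits that lay more than 500 bp from any start of their host, in or beside CG3902, RpL3, Swim, Uhg5, hts and kra.

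In kra, which encodes a translation regulator and hosts 8 box H/ACA snoRNA genes, 4 of the 8 (Psi28S-3091a, Psi28S-3091b, Psi28S-3385a and Psi28S-3385b) shared a summit of rank 7959. It lay 4782 bp into the host and 14 bp before Psi28S-3385b. It was near rank 5436 in replicate 3 and rank 12613 in replicate 2, and no summit was within 500 bp in replicate 1. The promoter summits of kra, by contrast, stood in every replicate: the best, at rank 513 in the IDR list, ranked 614, 400 and 529. The interior summit thus rested on replicate 3 in the shortened lists.

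In RpL3, a large-subunit ribosomal protein gene, Me18S-A425 and Psi28S-291 lay 257 bp before and 473 bp after a summit of rank 3744, which ranked 4629, 6700 and 2522 in the replicates. The nearest start to it belonged to the antisense gene asRNA:CR31144. In Uhg5, a noncoding host of 11 box C/D snoRNA genes, the last of them, Or-CD4, lay 432 bp before a summit of rank 1342 that stood beyond the host's end, at 3084 bp from its start. It ranked 1568, 1436 and 1230, so it was above the host's own promoter summit (rank 4423; 5756, 3513 and 5052) in each replicate. In hts, which encodes adducin, hts-a lay 66 bp after a summit of rank 1872 (2108, 1844 and 1823), and the nearest start was that of tRNA:Ser-CGA-1-4.

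**Figure D4:**
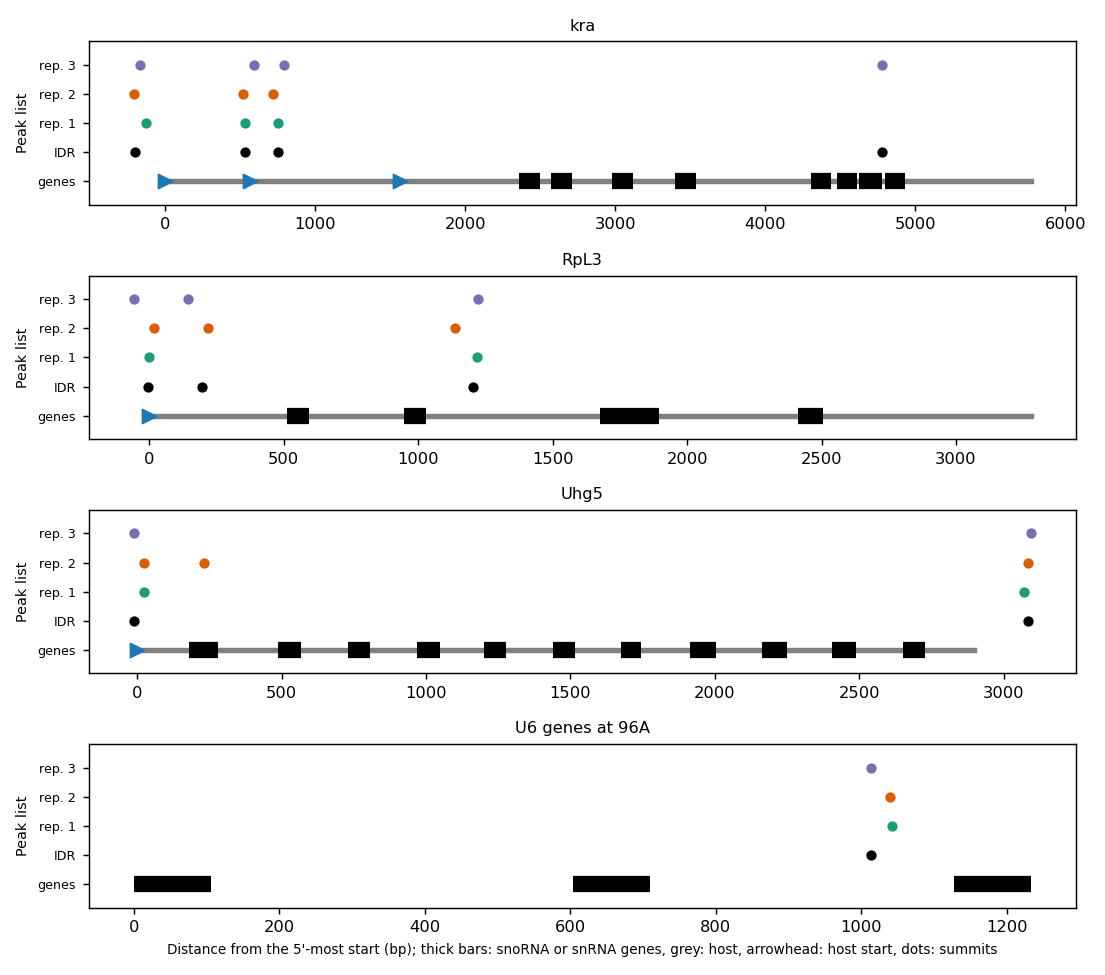
Distances are in bp from the 5′-most start of each region, with host genes in grey, their starts as arrowheads and snoRNA or snRNA genes as thick bars. Dots are summits in the IDR list and the 3 shortened replicate lists. The summit 4782 bp into kra has a dot in the IDR list and replicate 3 only, while those near 1204 bp in RpL3, 3084 bp from the Uhg5 start and 1013 bp from the first U6 start have one in all lists.

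For 7 of the 24 the snoRNA's own start was the nearest to the summit. After Or-CD4 these were Psi28S-2566 in CG3902 (rank 5067; 5337, 3572 and 5662 in the replicates), Or-aca2 in RpS6 (7029; 11891, 5211 and 7436), Psi28S-3385b in kra, Me18S-C1968 in Swim (8290; 8722, none within the window, and 7884), Me28S-A1322 in eEF1alpha1 (8912; 12591, 6745 and 7792) and gcl-a in gcl (8947; 11332, 6904 and 8845). All but Or-CD4 and Psi28S-2566 missed the shortened list of at least 1 replicate. They were mostly in the lower ranks of the IDR list.

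Members near the edge of the window were counted by their nearest IDR summit, whatever its rank, whereas a distance given beside a rank is to the best-ranked summit within the window. Between 400 and 500 bp lay 10 members (U6:96Ab, Psi28S-1153, and 8 embedded genes: Me28S-C3227a, Or-CD11a, Or-CD4, Psi28S-1232, Psi28S-291, Psi28S-2949, Psi28S-3091a and U49:66Da). Between 500 and 600 bp there were 2, Me18S-G1620 in Uhg2 at 555 bp and Psi18S-1295 in RpS20 at 563 bp.

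Seen from the hosts, 49 of 82 had an IDR summit within 500 bp of an annotated start (59.8%), beside 29.9% of protein-coding and noncoding RNA genes and 34.0% of protein-coding genes counted the same way. The shortened replicate lists gave 62.2%, 54.9% and 67.1% (61.4% ± 6.14, SD, n = 3), each above both backgrounds, which are from the IDR list. In all 3 shortened lists 42 hosts had a summit. These 49 hosts held 145 of the 236 embedded genes (61.4%). The summit lay upstream in 39 of 49, at a median of −66 bp, and the host was the nearest start for 38. The median rank was 3478, beside 3845 for all protein-coding genes with a promoter summit. Embedded genes without a summit at their own start but in a host with one at its promoter numbered 122 of 236 (51.7%). Outside ribosomal protein hosts, 80 of 165 embedded genes (48.5%) lay in a host with a promoter summit.

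The classes of host differed in their counts. Of 28 ribosomal protein hosts 23 were bound (82.1%; 82.1%, 75.0% and 89.3% in the replicates, 82.1% ± 7.14, SD, n = 3). Ribosomal protein genes without a snoRNA gene gave 43 of 65 (66.2%; 66.2% ± 2.66, SD, n = 3), with 64.6%, 64.6% and 69.2% in the replicates, each below the lowest value of the hosts. The difference between these 2 sets of genes was not tested. Each set was taken by gene symbol, and duplicated or related copies were not set apart. Other protein-coding hosts gave 22 of 44 (50%; 53.0% ± 4.73), the Uhg noncoding hosts 4 of 7 (57.1%; 57.1% ± 14.3) and other noncoding hosts 0 of 3. The Uhg genes make spliced RNAs with little coding capacity whose introns carry box C/D or box H/ACA snoRNAs. Uhg2 ranked 2810, Uhg5 4423, Uhg4 4639 with the start of Boot nearer, and Uhg8 6684. Uhg1, Uhg3 and Uhg7 had no IDR summit.

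**Figure D5:**
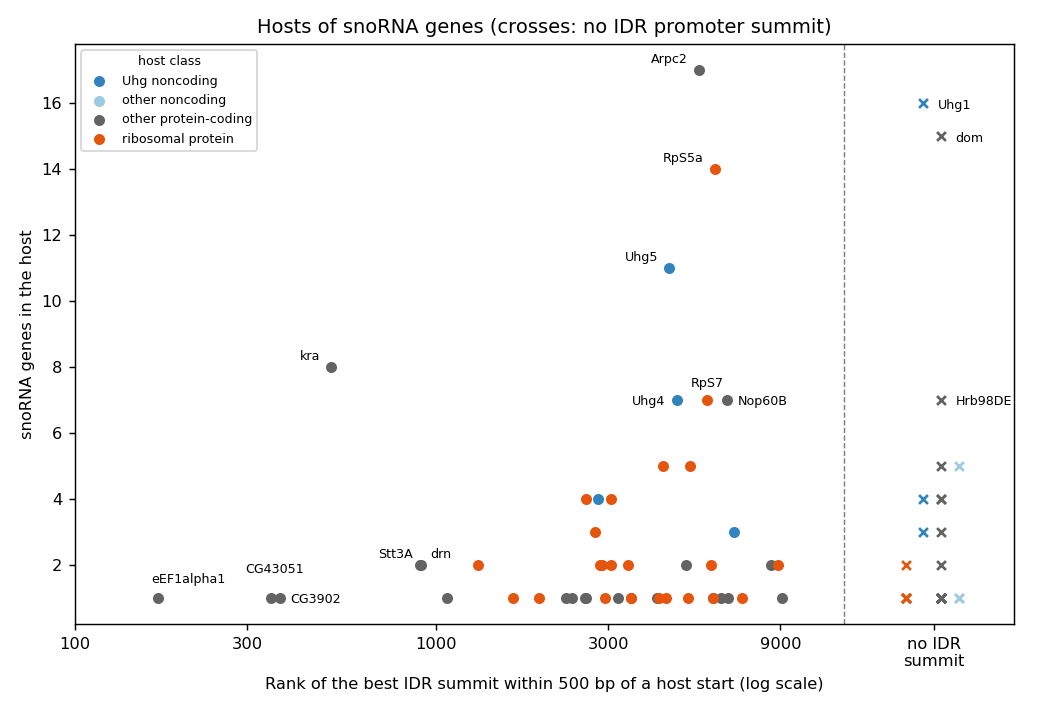
Each point is a host, placed by the rank of its best IDR summit within 500 bp of a start (log scale) and the number of snoRNA genes it holds, coloured by class. Crosses on the right are hosts without an IDR promoter summit. Hosts with many snoRNA genes stand on both sides: Arpc2, RpS5a and Uhg5 have a summit, and Uhg1, dom and Hrb98DE have none.

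The host with most snoRNA genes was Arpc2, an Arp2/3 complex subunit gene with 17. Its summit ranked 5343 (4183, 5901 and 6711) and lay nearer to the start of CG10949. Uhg1, with 16, had a summit in the full lists of replicates 1 and 3 only (ranks 14823 and 8093), and the chromatin remodeller gene dom, with 15, in replicate 1 only (rank 6755). RpS5a, with 14, ranked 5920 (5614, 6874 and 6390). Of the hosts with 7, Nop60B, which encodes the pseudouridine synthase of box H/ACA particles, ranked 6384 (6002, 8228 and 6413), RpS7 5633 (6214, 5412 and 5877), Uhg4 as given above, and the hnRNP gene Hrb98DE was below the IDR list (pooled rank 10713). Of those with 5, RpL28 ranked 4244 and RpS16 5044, and CG10576 and lncRNA:CR45184 had no summit in any list. Between these by number stood Uhg5 with 11 (rank 4423) and kra with 8, which had the best rank of the hosts with 7 or more, 513. No association between the number of snoRNA genes and the rank was computed.

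Of the 10 best-ranked hosts 9 held 1 or 2 snoRNA genes, beside 58 of all 82 hosts (70.7%). The translation elongation factor gene eEF1alpha1 ranked 170 (168, 228 and 158), with the start of ERp60 nearer to the summit. CG43051 ranked 348 and CG3902 369 (541, 340 and 339), then kra. Stt3A, a subunit gene of the oligosaccharyltransferase, ranked 903 with bves nearer. The summit at drn ranked 908 with lncRNA:CR43301 nearer, and that at Msp300, which encodes a nuclear-anchoring protein of muscle, 1073. Of the ribosomal protein genes RpL13A came first, at 1303 with the starts of Dph4 and Spec2 nearer. Then came RpL30 at 1636 (1944, 1547 and 1596) and RpL22 at 1924, the latter with lncRNA:CR44966 nearer. The gene lola itself hosts 4 snoRNA genes (lola-a to lola-d), and neither its starts nor these genes had a summit in the IDR list.

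The 5 ribosomal protein hosts without an IDR summit were not all alike. RpL5 and RpL15 had none in any list, and RpL36A one in replicate 3 only (rank 8598). RpL11 ranked 3302, 2304 and 3138 in the replicates, at −12, +12 and −20 bp, but its best pooled summit ranked 20827. RpL10Ab ranked 6878, 11787 and 13749, with pooled rank 9204. For RpL11 the IDR and replicate lists therefore disagree.

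Motifs were counted over the same 300 bp at the 5′-most start of the hosts, on both strands. The DNA replication-related element DRE, with the letters TATCGATA, was in 19.5% of hosts, in 28.6% of ribosomal protein hosts, in 18.4% of hosts with an IDR promoter summit and in 7.51% of all genes. No snRNA gene held it. TATAAA was in 40.2% of hosts and 43.9% of all genes, GAGAGA in 9.76% and 11.7%, and CACGTG in 12.2% and 4.21%. GTTCNANNC, the B box of RNA polymerase III genes, was in 9.76% and 10.4%. By kind of host, CACGTG was in 8.16% of those with an IDR promoter summit. It was in 3.57% of ribosomal protein hosts and 16.7% of other hosts. No host held the PSEA core at 70 to 50 bp before its start, and 3 of 236 embedded genes did. A match says only that the letters stand in the window.

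Genes for the proteins that make and carry these RNAs were counted by a list, of which 54 genes were found. An IDR summit lay within 500 bp of a start at 30 of them (55.6%; 55.6% ± 1.85, SD, n = 3), beside 34.0% of protein-coding genes, and for 17 of the 30 the gene was the nearest start. For snRNA transcription the count was 9 of 23 (39.1%), and for 3 of the 9 the gene was the nearest start (IntS6, IntS4 and Su(Tpl)). IntS6, of the Integrator complex that cuts snRNA 3′ ends, ranked 10 (7, 30 and 7), the best rank on the list. The RNA polymerase III factors Bdp1 and Brf ranked 1557 and 1591, each with another gene's start nearer. IntS11, the cutting subunit, ranked 1862, defl 4628, IntS10 5347 and IntS12 8293, each also with another gene's start nearer. IntS4 ranked 4956 and the elongation factor gene Su(Tpl) 6405. The genes of the PBP subunits (Pbp45, Pbp49 and Pbp95), which bind the PSEA, had no summit in any list.

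For the proteins of snRNPs and their assembly the count was 13 of 20 (65.0%; 65.0% ± 5.0). Lsm11, of the U7 particle, ranked 75 (71, 84 and 80), with the start of Marc nearer. The U1 protein genes snRNP-U1-70K and snRNP-U1-C ranked 1938 and 2451, the latter with the start of gukh nearer. The Cajal body gene coil ranked 3589, Hexim, whose product binds 7SK, 3772, and SmD3 of the Sm ring 4330. For snoRNP proteins the count was 8 of 11 (72.7%; 75.8% ± 5.25). The helicase gene pont ranked 2492, and the box C/D core genes nop5 and Nop56 2609 and 4871, Nop56 with the start of mats nearer. The methyltransferase gene Fib ranked 3480 with the start of CG3085 nearer. NHP2, of box H/ACA particles, ranked 4242, 5172 and 3353 in the replicates and 17754 in the pooled list, and was not counted. Of the 11 snoRNP genes 3, nop5, Nop60B and Fib, also host snoRNA genes.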

How the data were processed

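The labels put all 3 samples in 1 group, biological replicates 1 to 3. Per the labels, the coordinates are on dm6; no aligner, peak caller or IDR threshold is named in the sources used here. The authors deposited a peak list per replicate, a list for the pooled replicates and an IDR list. The score in each deposited list is on a scale that is not given, and served only for ranks inside each list. The deposited −log10 q values of the IDR peaks are all the same, 4.37, and gave no order. The IDR list equals the 9202 highest-scoring pooled peaks, and is not independent of the replicates. The depth is unknown, and intervals cover counting over genes only. Genes are not replicates.

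Summits (interval start plus peak offset) were compared with Ensembl release 115 gene starts in Python 3.11.15 with numpy and pandas, and the window rule was tested on simulated summits. A host is a gene on the same strand that contains the snoRNA gene. Where several did (11 members), the shortest was taken. Host starts are all annotated transcript starts. Guide classes follow gene symbols. Named genes are all snRNA families, the bound independent genes, the embedded genes nearest to their summit, the hosts with most snoRNA genes and the best ranks, the members at the window's edge, and the listed proteins by rank; RpL11 and the other unbound ribosomal protein hosts, NHP2 and the hosts beyond these were added after their values were seen. The protein list was matched by symbol (49), synonym (5) or capitals (1), 1 name had no match, and 1 gene was listed under 2 names. The members and lists were chosen with earlier results of these data known. The alternatives tried are in the closing section.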

Additional observations from a re-analysis of the deposited data

How the results depend on the processing

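Of 54 alternatives over 5 counts, 36 stayed within 1.5 times the reported count and 18 did not. With only the 4601 highest-scoring IDR peaks, the counts were 4 snRNA, 2 independent and 12 embedded genes, 31 hosts and 13 protein genes. A 250 bp window gave 4 independent and 12 embedded genes, and a 1000 bp window 61 embedded genes. The full pooled list gave 15 independent and 41 embedded genes. Counting only members that are the nearest start to their summit left 4 independent and 7 embedded genes. A summit in all 3 shortened lists was found for 10 embedded genes. Leaving out 1 replicate meant asking for a summit in each of the remaining shortened lists, which gave 12 to 14 embedded genes. By that rule they cannot exceed the counts of the single shortened lists, 17, 17 and 24. For the other counts, leaving out 1 replicate gave 6 to 7 snRNA genes, 6 to 7 independent genes, 43 to 46 hosts and 27 to 29 protein genes. In 2 alternatives chosen after seeing the data, leaving out summits at host starts left 10 embedded genes, and leaving out ribosomal protein hosts left 26 of 54 hosts, fewer by construction. The count of snRNA genes stayed between 6 and 9 under every alternative other than that shorter list. No paired analysis was possible because there is 1 group of samples. Peak lists hold no counts, so depth limits could not be set.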
